A study of Mus musculus with 4 samples.

Results

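Lone integration sites were vector junctions that had no other junction of any library, on either strand, within 20 kb. They made up 17103 of the 116493 autosomal junctions in the 4 pooled lists, or 14.7% (95% Wilson interval 14.5 to 14.9). The sites come from HIT-seq, in which a fusion protein that binds HIV integrase is meant to direct an HIV-based vector to its places on chromatin. An integration thus marks a place where that protein may have been. The fusions joined TAF3 to the integrase-binding domain of LEDGF and were expressed in mouse embryonic fibroblasts of strain C57BL/6. All 4 groups shared the Psip1 (-/-) genotype, and thus lacked LEDGF/p75, the host factor that normally tethers HIV integrase. The groups were the full-length protein with the M880A substitution (Full M880A), wild-type full-length protein (Full WT), the PHD domain alone with M880A (PHD M880A) and the wild-type PHD domain alone (PHD WT). The fibroblasts are 1 knockout line, the fusions came from transiently introduced plasmids, and cells were sorted for GFP before infection. The listed treatment was the same in all 4 groups: recovery for 24 to 36 h, 500 ng of vector with 8 ug/mL polybrene, and harvest at 48 to 72 h. Isolation of junctions in cells without a fusion was not analysed here, so junctions that arose without the fusion cannot be told apart. Each group was 1 library, so the values below set single libraries side by side, without replicates of any condition.

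TAF3 is a subunit of TFIID, the general factor that helps to assemble RNA polymerase II at promoters. Its PHD finger binds histone H3 trimethylated on lysine 4, a mark concentrated at active promoters. M880 lies in this finger, and the substitution is meant to weaken that contact. HIV integration that is directed by LEDGF/p75 itself falls mainly in the bodies of transcribed genes. A junction that stands alone is a place the pooled libraries reached once, in contrast to the crowded places that several integrations marked.

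The autosomal lists held 37477 Full M880A, 21654 Full WT, 33085 PHD M880A and 24277 PHD WT junctions. The numbers taken as reads summed to 3651264, 2119983, 2085037 and 2228958 in that order over all chromosomes, and no listed site had fewer than 2. By their read names, the Full WT reads came from a separate flow cell, whereas Full M880A, PHD M880A and PHD WT were lanes of 1 other flow cell. Positions are given in mm9, counted from 1. Neither the mm9 genome nor its annotation was used here, so no sequence around the junctions and no gene is given. Stretches in which reads cannot be placed were not marked either. Distances between junctions and densities per Mb therefore include any such stretch.

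Lone junctions were chosen by the measured positions of all 4 libraries, so their shares are a description and carry no test. Lone junctions were most frequent in the M880A libraries. They were 18.4% (18.0 to 18.8) of the Full M880A junctions, 6889 in number, against 9.31% (8.93 to 9.70) of the Full WT junctions, 2016 in number. In the PHD pair they were 20.8% (20.3 to 21.2) of the PHD M880A junctions, 6876 in number, against 5.45% (5.17 to 5.74) of the PHD WT junctions, 1322 in number. The ratio of the M880A share to the WT share was 1.97 (1.88 to 2.07 by counting error) for Full and 3.82 (3.61 to 4.04) for PHD. Between lengths, the share in Full M880A was 0.884 times (0.858 to 0.911) that in PHD M880A, and the share in Full WT 1.71 times (1.60 to 1.83) that in PHD WT. Because Full WT alone came from its flow cell, flow cell and fusion cannot be told apart in the ratios that use it. These intervals and all others in the text cover counting error only.

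Since neighbours were taken from the whole pool, a junction of each library could lose its lone status to its own library or to the other 3. The ratios were smaller when only junctions of the same library counted as neighbours, 1.15 for Full and 2.25 for PHD. A junction of a shorter list meets fewer neighbours in that count, and the M880A lists were the longer ones. In libraries thinned to an equal size of 21654 junctions, neighbours of the same library gave 1.51 for Full and 2.66 for PHD. Neighbours from the whole pool gave 1.91 and 3.84 in thinned libraries, so the same-library ratios were smaller at equal size too. The cause was not tested. With same-library neighbours in thinned libraries, the lone share was 53.2% in Full M880A against 35.2% in Full WT. It was 59.2% in PHD M880A against 22.3% in PHD WT.

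**Figure D1:**
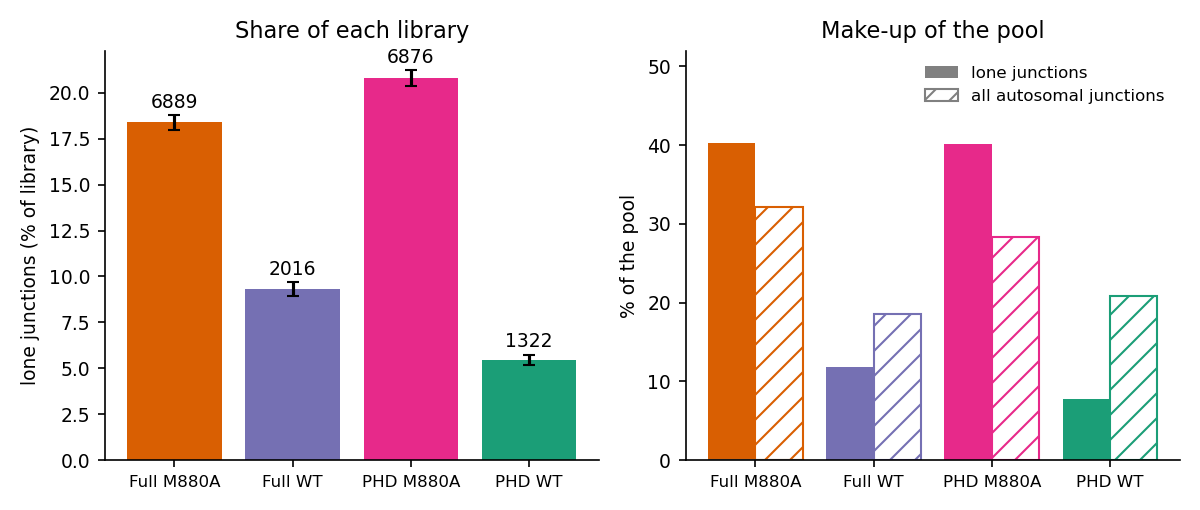
Left, the percent of each library's autosomal junctions that were lone, with 95% Wilson intervals and the number of lone junctions above each bar. Right, the make-up of all lone junctions (solid) and of all autosomal junctions (hatched) by library, in percent; both M880A libraries take a larger part of the lone junctions than of the pool, and both WT libraries a smaller part.

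The M880A libraries together supplied most lone junctions. Full M880A held 40.3% of the lone junctions and 32.2% of the pool. Full WT held 11.8% of the lone junctions and 18.6% of the pool. PHD M880A held 40.2% and 28.4%, and PHD WT 7.73% and 20.8%, in the same order.

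How alone a lone junction was depended little on its library. The median distance to the nearest junction was 33.2 kb in Full M880A, 32.1 kb in Full WT, 32.8 kb in PHD M880A and 32.3 kb in PHD WT. Over all libraries 4119 lone junctions (24.1%) had their nearest junction at 20 to 25 kb, 9171 (53.6%) at 25 to 50 kb, 3230 (18.9%) at 50 to 100 kb, 533 (3.12%) at 100 to 200 kb and 50 (0.292%) beyond 200 kb. Most members thus had their nearest junction within 50 kb. The make-up by library hardly moved across the first 4 of these classes. Full M880A supplied between 39.7% and 42.4% of each, PHD M880A between 38.5% and 40.5%, Full WT between 10.7% and 12.5% and PHD WT between 7.37% and 8.44%. Beyond 200 kb there were 20 Full M880A, 3 Full WT, 23 PHD M880A and 4 PHD WT junctions.

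At other radii the order of the WT libraries below the M880A libraries was the same. With no other junction within 1 kb, the shares were 67.2% in Full M880A, 44.4% in Full WT, 81.2% in PHD M880A and 22.4% in PHD WT. With 5 kb they were 46.3%, 27.4%, 56.6% and 13.9% in the same order of libraries. With 50 kb they were 4.27%, 1.95%, 4.54% and 1.18%. The 2 M880A libraries drew closer to each other between 10 and 50 kb. The ratio of the Full M880A share to the PHD M880A share was 0.840 at 10 kb, 0.884 at 20 kb and 0.942 at 50 kb. The intervals of the 2 shares overlapped at 50 kb (4.07 to 4.48 in Full M880A, 4.32 to 4.77 in PHD M880A). At 200 kb, with 20 and 23 junctions left, the shares were 0.0534% and 0.0695%. The number of lone junctions itself is set by the radius: it was 31686 at 10 kb and 3813 at 50 kb.

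**Figure D2:**
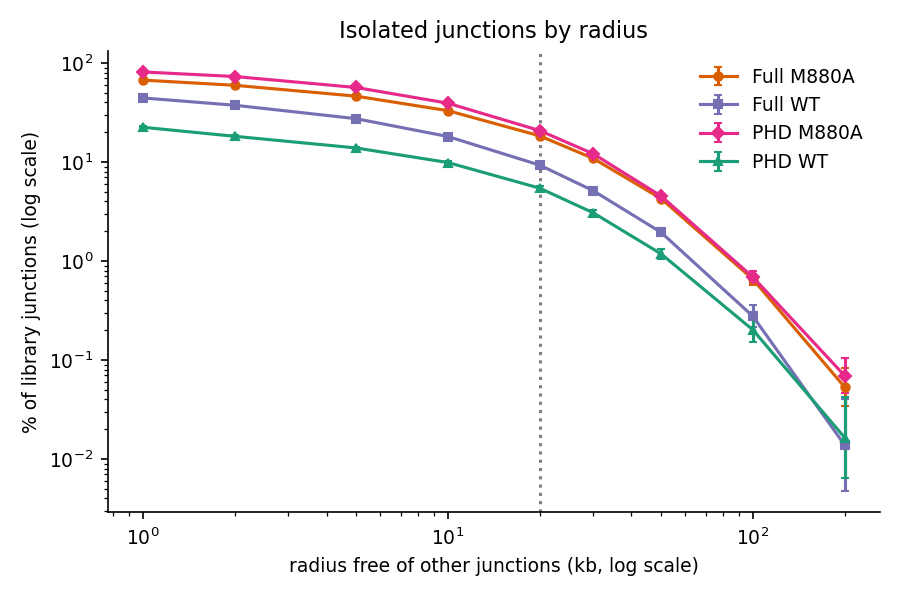
Percent of each library's autosomal junctions (vertical, log scale) with no other junction of the pool within the radius on the horizontal axis (kb, log scale), with 95% Wilson intervals; the dotted line marks the 20 kb of the rule. Both M880A curves run above both WT curves from 1 to 200 kb and their own intervals overlap from 50 kb on, while PHD WT is lowest up to 100 kb.

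There was no gap in the data at the radius. Between 20 and 21 kb there were 884 junctions, and between 19 and 20 kb, just outside the rule, 1110. Just inside lay a PHD M880A junction on chromosome 4 at 58711532, with its nearest junction 20001 bp away and 18 reads, a Full M880A junction on chromosome 19 at 21779814, also at 20001 bp, with 2 reads, and a PHD M880A junction on chromosome 3 at 86192642, at 20002 bp, with 6 reads. Just outside lay 3 Full M880A junctions that each had a neighbour at 20000 bp. Of these, 2 were each other's neighbour, on chromosome 1 at 176096657 with 232 reads and at 176116657 with 82 reads. The third lay on chromosome 19 at 10323586 and had 2 reads. Members and non-members thus differ at the radius by as little as 1 bp.

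The 10 most isolated junctions all came from the M880A libraries, 3 from Full M880A and 7 from PHD M880A, which held 40.3% and 40.2% of all lone junctions. The part in these distances of stretches where reads cannot be placed was not tested. The most isolated of all was a PHD M880A junction on the plus strand of chromosome 12 at 22849580. Its nearest junctions lay 1192257 bp to the left, in PHD M880A, and 2202405 bp to the right, in PHD WT, and it had 10 reads. Next was a Full M880A junction on the minus strand of chromosome 7 at 9667334, with its nearest junction 1055686 bp away and 33 reads. On chromosome 14, PHD M880A junctions at 42819109 and 43522636 were neighbours across 703527 bp, and had 3 and 2 reads. On chromosome 5, a Full M880A junction at 95594247 (10 reads) and a PHD M880A junction at 94738299 (76 reads) were neighbours across 855948 bp. The nearest junction of the first lay 648679 bp away and that of the other 634577 bp away. That nearest junction, in Full M880A at 94103722 with 9 reads, was lone as well, so that 3 members of 2 libraries followed each other there.

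The second of the chromosome 14 pair had its nearest junction 434126 bp away. The remaining 4 of the 10 had theirs between 346424 and 378431 bp away. They lay on chromosome 4 at 113488817 (2 reads), on chromosome 12 at 18382186 (10 reads), and on chromosome 7 at 15609708 (2 reads) and 115210789 (97 reads). Of the 10, 5 had no junction of any library between 20 and 500 kb away, and 3 lay on chromosome 7, which held 866 of the 17103 lone junctions. The reads of the 10 ran between 2 and 97 with a median of 10, and 7 had 10 reads or fewer. Among all 50 lone junctions with their nearest junction beyond 200 kb the median was 38 reads. In the nearer classes of distance it was 22 to 24.

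In the WT libraries the most isolated junctions lay closer to others. In Full WT they were on chromosome 8 at 5980634, with its nearest junction 219071 bp away and 10 reads, and on chromosome 7 at 12047372, at 213582 bp and with 39 reads. In PHD WT they were on chromosome 14 at 84063088, at 292100 bp and with 43 reads, and on chromosome 7 at 32263153, at 269422 bp and with 18 reads. All 4 had a junction of an M880A library as their neighbour on both sides. Among all lone Full WT junctions, the nearest junction was in Full M880A for 38.6% and in PHD M880A for 38.6%. For lone PHD WT junctions these shares were 39.7% and 38.3%. The WT lists also held fewer lone junctions from which such extremes were taken.

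Lone junctions were spread evenly over the autosomes although the junctions as a whole were not. The pool held between 31.1 junctions per Mb on chromosome 14 and 73.9 per Mb on chromosome 11, a range of 2.38 times. Lone junctions ran between 5.80 per Mb on chromosome 7 and 7.57 per Mb on chromosome 1, a range of 1.31 times, with a median of 7.20. The lone share was therefore highest on chromosomes with few junctions. It was 22.4% (21.1 to 23.8) on chromosome 14, 20.9% (19.7 to 22.1) on chromosome 12 and 20.3% (18.97 to 21.7) on chromosome 18. It was lowest on chromosome 11, at 9.08% (8.50 to 9.70), chromosome 19, at 9.87% (8.99 to 10.8), and chromosome 15, at 10.6% (9.87 to 11.4). Across the 19 autosomes, which share the 4 libraries, the lone share and the density of junctions had a Pearson r of -0.96 and a Spearman rho of -0.98. The rule itself ties these measures, since a denser chromosome leaves fewer stretches free.

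Chromosome 7 stood below the others. Its density, 34.6 junctions per Mb, was close to that of chromosome 12, also 34.6, but it held 5.80 lone junctions per Mb against 7.22 on chromosome 12. It also carried 3 of the 10 most isolated junctions and 866 of the 17103 lone junctions. The part in these densities of stretches where reads cannot be placed was not tested.

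The order of the libraries was the same on each of the 19 autosomes: the share was highest in PHD M880A, then Full M880A, then Full WT, and lowest in PHD WT. Over the autosomes it ran between 11.96% and 27.1% in Full M880A, 5.05% and 16.1% in Full WT, 14.3% and 30.8% in PHD M880A, and 2.63% and 9.46% in PHD WT. The ratio of Full M880A to Full WT ran between 1.52 and 2.58 with a median of 2.06, and that of PHD M880A to PHD WT between 2.85 and 5.52 with a median of 3.76. Full M880A came closest to PHD M880A at a ratio of 0.983, and Full WT closest to PHD WT at 1.08. Autosomes of 1 library are not replicates of a condition.

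**Figure D3:**
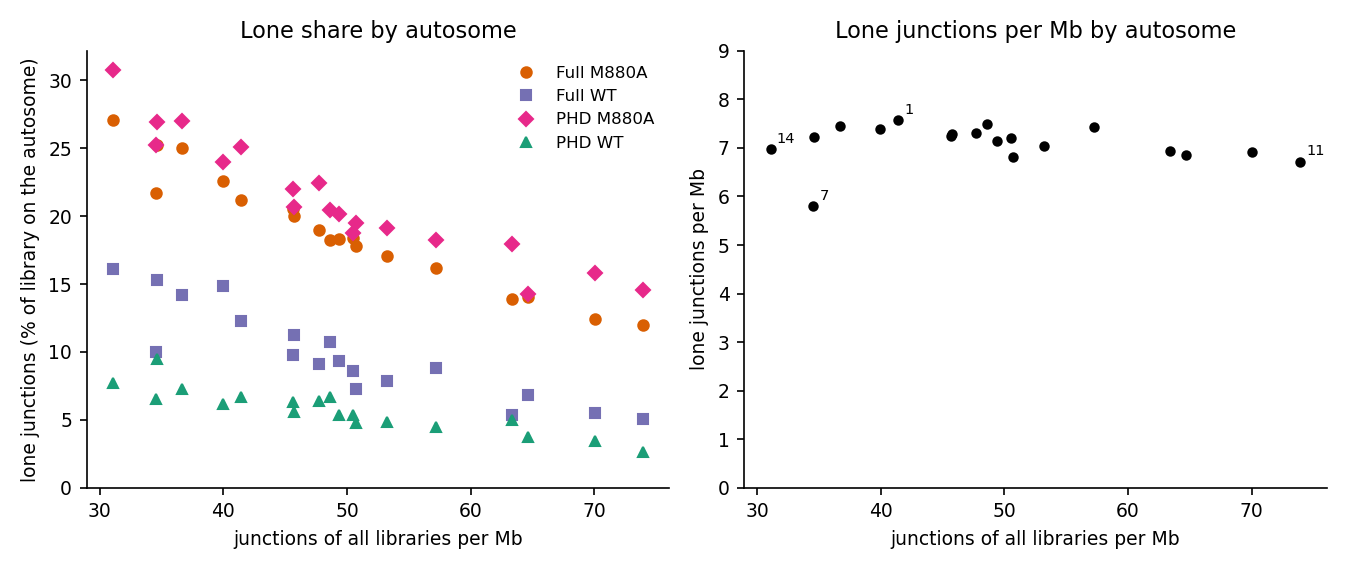
Each point is 1 of the 19 autosomes, placed by its density of junctions of all libraries (per Mb). Left, the percent of each library's junctions that were lone falls with density in all 4 libraries, in the same order throughout; right, lone junctions of all libraries per Mb stay between 5.80 and 7.57, with chromosome 7 lowest (chromosomes 1, 7, 11 and 14 are labelled).

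In windows of 1 Mb, lone junctions were found nearly everywhere. Of 2400 autosomal windows with a junction, 2389 (99.5%) had a lone one, with a median of 7 per window and at most 17. The 11 windows without any were crowded, with a median of 213 junctions and up to 556. The number of lone junctions per window was highest at middling density. Windows of 1 to 10 junctions held 4.12 on average, those of 11 to 25 held 7.84, those of 26 to 50 held 7.89, those of 51 to 100 held 6.36, and those of over 100 held 4.27. The lone share of junctions fell over these classes, from 63.1% through 41.7%, 21.3% and 9.36% to 2.63%. The rule ties these numbers to density. A window with few junctions can hold few lone ones, and a crowded window leaves fewer stretches free. In 25 windows all junctions were lone.

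The windows with the most lone junctions had 17 each. On chromosome 3, positions 74000001 to 75000000 held 17 junctions, all of them lone, of which 5 were Full M880A, 5 Full WT, 5 PHD M880A and 2 PHD WT. On chromosome 12, positions 7000001 to 8000000 held 17 lone among 19 junctions, with 8, 2, 6 and 1 from these libraries. The window on chromosome 13 from 53000001 to 54000000 held 17 among 45, with 4, 3, 7 and 3. Windows on chromosome 1 from 3000001 and on chromosome 6 from 49000001 held 15 lone junctions each, among 23 and 65 junctions; they were the first along the genome of 7 windows tied at 15. Apart from the window on chromosome 3, each window named here thus also held junctions with a neighbour within 20 kb.

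Lone junctions often followed one another. In order along the chromosomes they formed 8018 unbroken series, of which 3962 were a single junction with no lone junction next to it in that order. These single ones were 23.2% of the lone junctions, and 25.5% lay in the 668 series of at least 5. The rule itself favours such series, since a lone junction leaves the next junction over 20 kb free on 1 side. Whether the series were longer than the rule alone would give was not tested. The longest series, chosen here after their values were seen, had 21 members each. The series on chromosome 2 between 40182430 and 41532629 had 7 Full M880A, 1 Full WT, 13 PHD M880A and 0 PHD WT junctions. The series on chromosome 7 between 57099332 and 58895581 had 9, 0, 8 and 4 in the same order.

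The surroundings of lone junctions differed little between libraries, whereas those of the other junctions did differ. Surroundings were measured as the number of junctions of any library between 20 and 500 kb away, on both sides, which lies outside the radius of the rule but is related to it. The median was 34 around lone and 54 around other Full M880A junctions, a ratio of 0.630. It was 37 and 63 in Full WT (0.587), 35 and 50 in PHD M880A (0.700), and 35 and 62 in PHD WT (0.565). The lower quartile around lone junctions was 23 or 24 and the upper quartile 50 to 53 in each library. Lone junctions were thus in sparser regions than the rest of their library, but not mostly in empty ones. Only 5 of the 17103 had no junction in this ring, 2 from Full M880A and 3 from PHD M880A. The fullest ring around a lone junction held 417 junctions.

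Within each of 5 classes of surroundings, lone junctions were more frequent in the M880A libraries. The classes are ranges and not matched densities, and the last has no upper end: its median was 127 junctions in Full M880A against 137 in Full WT, and 117 in PHD M880A against 137 in PHD WT. In each of the other 4 classes the medians of the libraries differed by at most 1 junction. The part of this remaining difference in density was not tested. With 0 to 19 junctions in the ring, the lone share was 43.6% (41.7 to 45.5) in Full M880A, 34.8% (31.7 to 38.1) in Full WT, 43.9% (42.0 to 45.8) in PHD M880A and 26.1% (23.2 to 29.2) in PHD WT. With 40 to 59 junctions it was 18.1% in Full M880A, 10.6% in Full WT, 19.2% in PHD M880A and 5.59% in PHD WT. With 80 or more it was 4.92% (4.51 to 5.37), 2.44% (2.12 to 2.81), 7.68% (7.07 to 8.34) and 1.13% (0.930 to 1.38) in the same order.

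The ratio of the PHD libraries was higher in each denser class, and the other ratios did not move in 1 direction throughout. The ratio of Full M880A to Full WT was 1.25 in the sparsest class, then 1.712, 1.709 and 1.90, and 2.02 in the densest. The ratio of PHD M880A to PHD WT was 1.68 in the sparsest class and rose through 2.74, 3.44 and 3.98 to 6.78 in the densest. The M880A libraries had nearly equal shares at low density, with a ratio of Full to PHD of 0.992 in the sparsest class and 1.01 in the next, and differed most in the densest, at 0.641. Full WT over PHD WT was 1.33 in the sparsest class, then 1.61, 1.89 and 1.75, and 2.15 in the densest. Every library had lone junctions in the densest class, with 484 Full M880A, 187 Full WT, 517 PHD M880A and 98 PHD WT members.

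**Figure D4:**
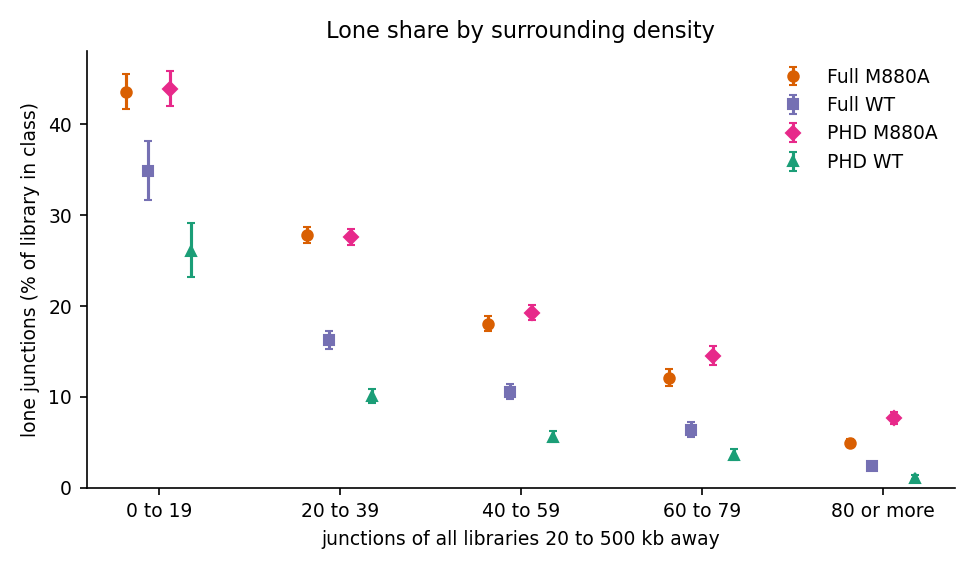
Percent of each library's junctions that were lone, with 95% Wilson intervals, in 5 classes of surroundings given as the number of junctions of all libraries 20 to 500 kb away. The share falls with density in each library, and the libraries lie relatively farther apart in the densest class (7.68% in PHD M880A, 1.13% in PHD WT) than in the sparsest (43.9% and 26.1%).

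The nearest junction of a lone junction came from the same mix of libraries whichever library the lone junction belonged to. It was a Full M880A junction for 39.4% of the Full M880A, 38.6% of the Full WT, 40.4% of the PHD M880A and 39.7% of the PHD WT lone junctions. It was a PHD M880A junction for between 37.8% and 38.6%, a Full WT junction for between 12.4% and 13.1%, and a PHD WT junction for between 9.08% and 10.0%. These shares lie near the make-up of the lone junctions themselves. Among the other junctions the nearest one depended on the library. By the rule the other junctions have a neighbour within 20 kb and lone junctions have none. Contrasts of lone and other junctions in this measure are thus tied to the choice of members. The nearest junction belonged to PHD WT for 45.1% (44.5 to 45.8) of the other PHD WT junctions, against 9.08% (7.64 to 10.7) of the lone ones. It belonged to Full WT for 25.2% (24.6 to 25.8) of the other and 12.7% (11.4 to 14.3) of the lone Full WT junctions. In PHD M880A the own share was 37.8% (36.6 to 38.9) for lone and 37.3% (36.7 to 37.8) for other junctions, and in Full M880A 39.4% and 36.9%. Among lone junctions, the share with a nearest junction of their own library thus differed by at most 1.01 percentage points from the share with that nearest library among the lone junctions of each other library.

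Read support is a measure that the rule did not use. It was lower for lone than for other junctions in PHD WT, by much less in Full WT, and close to equal in the M880A libraries. In Full M880A the median was 23 reads for lone and 24 for other junctions, and in PHD M880A 23 for both. In Full WT it was 36 for lone and 42 for other junctions. In PHD WT it was 15 for lone and 30 for other junctions. No molecular identifiers were used, so PCR copies of 1 molecule cannot be told from several molecules, and the numbers are read support and not abundance.

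At least 10 reads were listed for 54.8% of lone and 65.9% of other PHD WT junctions, a difference of -11.0 percentage points (Newcombe 95% interval -13.8 to -8.30). In Full WT the shares were 73.4% and 75.6%, a difference of -2.21 points (-4.28 to -0.236). The Full WT difference ran between -4.85 and -0.494 points over 13 alternatives, and its interval held 0 in 3 of them: with the other end as the junction, with neighbours from Full WT only, and with at least 3 reads. The difference was 0.260 points (-0.990 to 1.497) in Full M880A and 0.573 points (-0.663 to 1.79) in PHD M880A, and both intervals hold 0. The lowest number listed, 2 reads, was carried by 25.9% of lone and 14.9% of other PHD WT junctions, 10.7% and 8.11% in Full WT, 11.7% and 11.7% in Full M880A, and 10.1% and 10.2% in PHD M880A. The PHD WT difference was -3.83 points (-6.52 to -1.3) among junctions with at least 3 reads, as members and neighbours. It was -4.31 points (-7.39 to -1.25) when junctions with a neighbour within 1 kb were left out of the comparison. Both alternatives were added once the values were known.

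The change in read support of PHD WT did not set in at the radius of the rule. Among PHD WT junctions with their nearest junction within 1 kb, 13.3% (12.9 to 13.8) had 2 reads. At 1 to 5 kb the share was 18.1% (16.5 to 19.8), at 5 to 20 kb 26.5% (24.6 to 28.4), at 20 to 50 kb 26.2% (23.6 to 28.9) and beyond 50 kb 24.7% (20.1 to 30.0). In Full M880A the share ran between 10.6% and 12.2% over the same 5 classes, in Full WT between 6.88% and 11.4%, and in PHD M880A between 8.95% and 12.2%. PHD WT shared its flow cell with both M880A libraries, but each of them was a single library. The cause of the PHD WT pattern was not tested.

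Seen from the reads, the lone share of PHD WT was 9.06% (8.19 to 10.0) among junctions with 2 reads, 5.48% (4.86 to 6.17) with 3 to 9, 4.60% (4.20 to 5.03) with 10 to 99 and 4.53% (4.03 to 5.09) with 100 or more. In Full WT it was 11.9% (10.5 to 13.5) with 2 reads and between 9.03% and 9.13% in the other classes. It was between 18.2% and 18.5% in Full M880A and between 19.95% and 21.2% in PHD M880A over all 4 classes. At 100 reads or more the shares were thus 18.5% in Full M880A, 9.10% in Full WT, 19.95% in PHD M880A and 4.53% in PHD WT, and the libraries stood in the order they had over all junctions. Restricting members and neighbours to at least 10 reads gave a ratio of PHD M880A to PHD WT of 4.26 and of Full M880A to Full WT of 1.88.

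**Figure D5:**
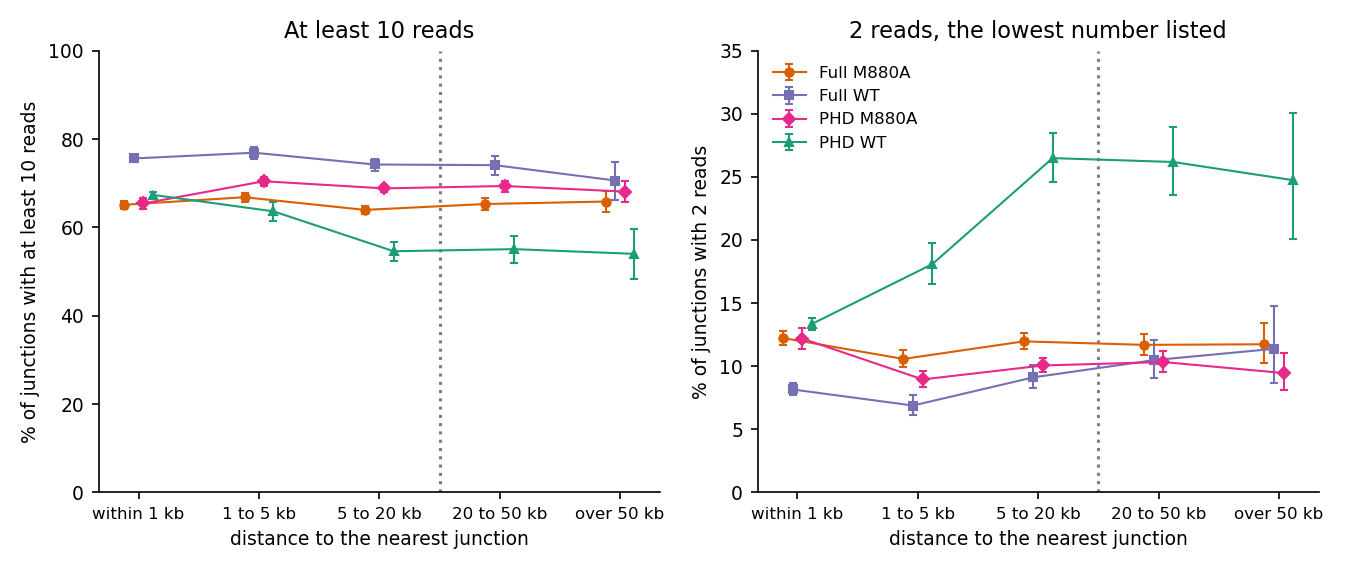
Percent of junctions with at least 10 reads (left) and with 2 reads, the lowest number listed (right), by the distance to the nearest junction of any library, with 95% Wilson intervals; classes right of the dotted line are lone junctions. PHD WT junctions with 2 reads make up 13.3% within 1 kb and 26.2% at 20 to 50 kb, while the other libraries stay between 6.88% and 12.2% throughout.

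Some lone junctions had very many reads. The 5 with the most were all from Full M880A, the library with the largest total of reads. They lay on chromosome 11 at 47986175 with 4621 reads, on chromosome 12 at 11357277 with 4456, on chromosome 17 at 74426248 with 4349, on chromosome 10 at 118459219 with 3824 and on chromosome 1 at 162175483 with 3714. Their nearest junctions were between 22360 and 52376 bp away, and 18 to 53 junctions surrounded each at 20 to 500 kb. Together the lone junctions carried 19.7% of the reads on autosomes in Full M880A, 9.38% in Full WT, 20.2% in PHD M880A and 4.88% in PHD WT, close to their shares of junctions.

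The listed interval that starts at the junction had a longer median for lone junctions in 3 libraries, by little in PHD M880A. It was 158 bp for lone and 144 bp for other Full M880A junctions, and 141 and 119 bp in PHD WT. It was 122 and 119 bp in PHD M880A, and only in Full WT was it shorter, 103.5 and 106 bp. In Full M880A the median was 125 bp with a neighbour within 1 kb and 149, 156, 159 and 156 bp in the classes farther out. The part of interval length in the counts was not tested.

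Lone junctions used both strands. The plus strand held 48.7% (47.6 to 49.9) of them in Full M880A, 49.1% (46.9 to 51.2) in Full WT, 49.2% (48.0 to 50.3) in PHD M880A and 50.2% (47.5 to 52.8) in PHD WT. Over all libraries it held 49.1% (48.3 to 49.8) of the lone and 50.3% of the other junctions.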

How the data were processed

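HIT-seq was run in 4 libraries, 1 per group. The authors deposited 1 BED list of integration sites per library, from paired-end reads per the file headers. The submitters' processing notes name the build mm9 and MACS 1.4.2 without its role. The aligner, filters and joining of reads into sites are not stated there. The deposited score, 0 in all lines, was left out. The whole number after each read name was taken as reads, from its values only.

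The junction was the start plus 1 on the plus strand and the end on the minus strand. Lines with equal chromosome, strand and junction were collapsed within a library and their reads summed. Members were autosomal junctions with no other junction of the pool within 20000 bp. An identical position in another library counted as a neighbour. Shares have Wilson and differences Newcombe intervals, and ratios of shares have log-normal ones. With 1 library per group there is no test.

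Sites were named by these rules: the 10 members farthest from any junction, the next 2 per library, the 5 with most reads, 3 on each side of the radius, 3 chromosomes at each end of the lone share, and the 5 windows of 1 Mb with most members. Members, rules and classes were chosen with earlier results of these data known. The distance code was tested on simulated data. Alternatives are listed at the end. Python 3.11.15, numpy 2.4.6, pandas 2.3.3, scipy 1.17.1 and statsmodels 0.14.6 were used.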

Additional observations from a re-analysis of the deposited data

How the results depend on the processing

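Of 164 values recomputed under 16 alternatives, 4 of them chosen after the data had been seen, 123 stayed within the counting interval of the value reported (for the number of lone junctions, within 1.5 times), and 41 moved. No ratio changed its side of 1, and no difference whose interval excluded 0 changed sign. Differences in read support whose interval held 0 changed sign 11 times, 6 in Full M880A and 5 in PHD M880A, to values between -0.942 and -0.0507 points. None of the 164 values moved with a different end as the junction, merging of positions within 10 bp or identical positions counted once. None moved with chromosome X included or with thinning to equal size alone. The sign changes did include merging, to -0.825 points in Full M880A and -0.656 points in PHD M880A. They also included thinning, to -0.280 points in Full M880A. The number of lone junctions was 31686 within 10 kb, 3813 within 50 kb, 26359 with neighbours from other libraries only and 43556 with neighbours from the same library only. The ratio of Full M880A to Full WT was 1.82 and 2.19 at 10 and 50 kb, 1.88 among junctions with at least 10 reads, 2.46 with neighbours from other libraries, 1.15 with neighbours from the same library, and 1.51 when these libraries were also thinned. The ratio of PHD M880A to PHD WT was 4.26 with at least 10 reads, 4.23 with at least 3, 5.00 with neighbours from other libraries, 2.25 with those from the same library, and 2.66 when also thinned. The ratio of Full M880A to PHD M880A was 0.840 at 10 kb, 0.942 at 50 kb and 0.842 with neighbours from other libraries. The ratio of Full WT to PHD WT was 1.83 at 10 kb, 1.94 with at least 10 reads, 1.88 with at least 3 and 1.58 with thinned libraries and neighbours from the same library. The difference in percent with at least 10 reads was -3.83 points in PHD WT with at least 3 reads, -4.31 points there without junctions crowded within 1 kb, and -4.85 points in Full WT at 50 kb. The ratio of median surroundings, lone over other, was 0.655 in Full M880A, 0.621 in Full WT, 0.750 in PHD M880A and 0.619 in PHD WT at 10 kb, and 0.510, 0.433, 0.562 and 0.467 at 50 kb. With neighbours from the same library it was 0.650, 0.616, 0.755 and 0.667 in that order. It was 0.649 in Full M880A with neighbours from other libraries and 0.536 in PHD WT with at least 3 reads. Without Full WT it was 0.667 in Full M880A and 0.6 in PHD WT. The lone shares themselves, not among the 164, moved in 35 of 51 cases. In the order Full M880A, Full WT, PHD M880A and PHD WT they were 26.1%, 13.7%, 30.1% and 7.83% in thinned libraries, 26.7%, 14.2%, 31.0% and 7.28% with at least 10 reads, 28.9%, 11.7%, 34.3% and 6.86% with neighbours from other libraries, and 40.6%, 35.2%, 47.2% and 21.02% with neighbours from the same library. The cause was not tested, except that a larger radius leaves fewer members by construction. No paired analysis was possible because each group has 1 library. Depth sets which sites reach the listed minimum of 2 reads.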
